A study of Mus musculus with 8 samples.

Results

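The genes of the MAP kinase cascades were followed in the newborn mouse cortex with and without the chromatin remodeling BAF complex in its projection neurons. They were taken as every protein-coding gene whose symbol is Mapk, Map2k, Map3k, Map4k or Mapkapk followed by digits alone, which gave 46 of the 48709 genes listed in the count files. The study sequenced RNA of whole cortex at postnatal day 1 (P1) and deposited 8 libraries, 4 of them control and 4 dcKO_Nex-Cre. The control animals were heterozygous for the floxed alleles (BAF155fl/+, BAF170fl/+) and had no Cre, whereas the dcKO_Nex-Cre mutants carried floxed *Smarcc1* and *Smarcc2*, the genes of the scaffold subunits BAF155 and BAF170, together with Nex-Cre, all on a C57BL6/J background. The sample labels name the groups control and mutant, and the Cre line was taken from the study's text. Nex-Cre is driven by the *Neurod6* locus and acts in postmitotic projection neurons, so that progenitors, glia, interneurons and vessels of the same tissue keep both genes. The Cre allele was present in the mutants alone, so a Cre effect and the loss of BAF155 and BAF170 cannot be told apart.

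MAP kinase cascades relay signals from receptors, stress and cell contacts by phosphorylation. A MAP4K or a small GTPase activates a MAP3K, the MAP3K activates a MAP2K, and the MAP2K activates a MAP kinase of the ERK, JNK or p38 family, which phosphorylates transcription factors, cytoskeletal proteins and downstream kinases such as the MAPKAP kinases. In the developing cortex these pathways are known for roles in neuron production, radial migration, axon growth and apoptosis. RNA counts measure how much transcript of each kinase is present and not whether the kinase is phosphorylated.

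Total counts ranged from 17958641 to 35191912 per library, and levels are given as CPM, the counts of a gene relative to the library total after correction by the TMM factors of edgeR. Groups were compared with the quasi-likelihood test of edgeR and Benjamini-Hochberg adjustment over all 16287 genes that passed its filter on low counts, with a threshold of 0.05. The deleted genes remained at 56.9% (*Smarcc2*) and 69.2% (*Smarcc1*) of their control level. By their file names, dcKO_Nex-Cre replicates 3 and 4 ran under lane tag 8 and the other 6 libraries under lane tag 2, so lane tag 8 had no control. Mitochondrial genes took 6.87% of the counts in control replicate 2 and 6.15% in dcKO_Nex-Cre replicate 4, against 2.33% to 4.24% in the other 6 libraries. The labels do not say that the samples of a group came from separate animals, so the p values measure the spread between these samples. In whole tissue, fewer cells of a type and less RNA per cell cannot be told apart.

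Most MAP kinase cascade genes kept a level close to that of the control. Of the 46 genes, 45 passed the filter and *Mapk13* (p38 delta) did not, with 5 to 9 counts per library. *Mapk15* fell to 45.7% of its control level and *Map3k6* rose to 224%, and these were the only members past an adjusted p of 0.05 by edgeR. That is 1 of 45 lower (2.22%) and 1 of 45 higher (2.22%), where 0.51% of all genes tested were lower and 0.375% were higher (2 members, or 4.44%, against 0.884% of all genes in either direction). At an unadjusted p under 0.05, 5 members were lower (11.1%) and 3 were higher (6.67%), against 7.05% and 6.59% of all genes tested. Without dcKO_Nex-Cre replicate 4, 2 members were lower and 2 higher at an adjusted p under 0.05 by edgeR. In that fit 619 of all 16539 genes tested were lower and 659 were higher, against 83 and 61 of 16287 with all libraries. The share of members called thus stood much closer to that of all genes than with all libraries. The median log2 fold change was 0.0029 over the 45 members and 0.0043 over all genes, and the median size of the change regardless of sign was 0.11 and 0.13. The fitted change was above 0 in 24 members and below 0 in 21, it lay within 0.25 of 0 in 35, and its 95% interval lay within 0.5 of 0 in 33 of the 45.

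**Figure D1:**
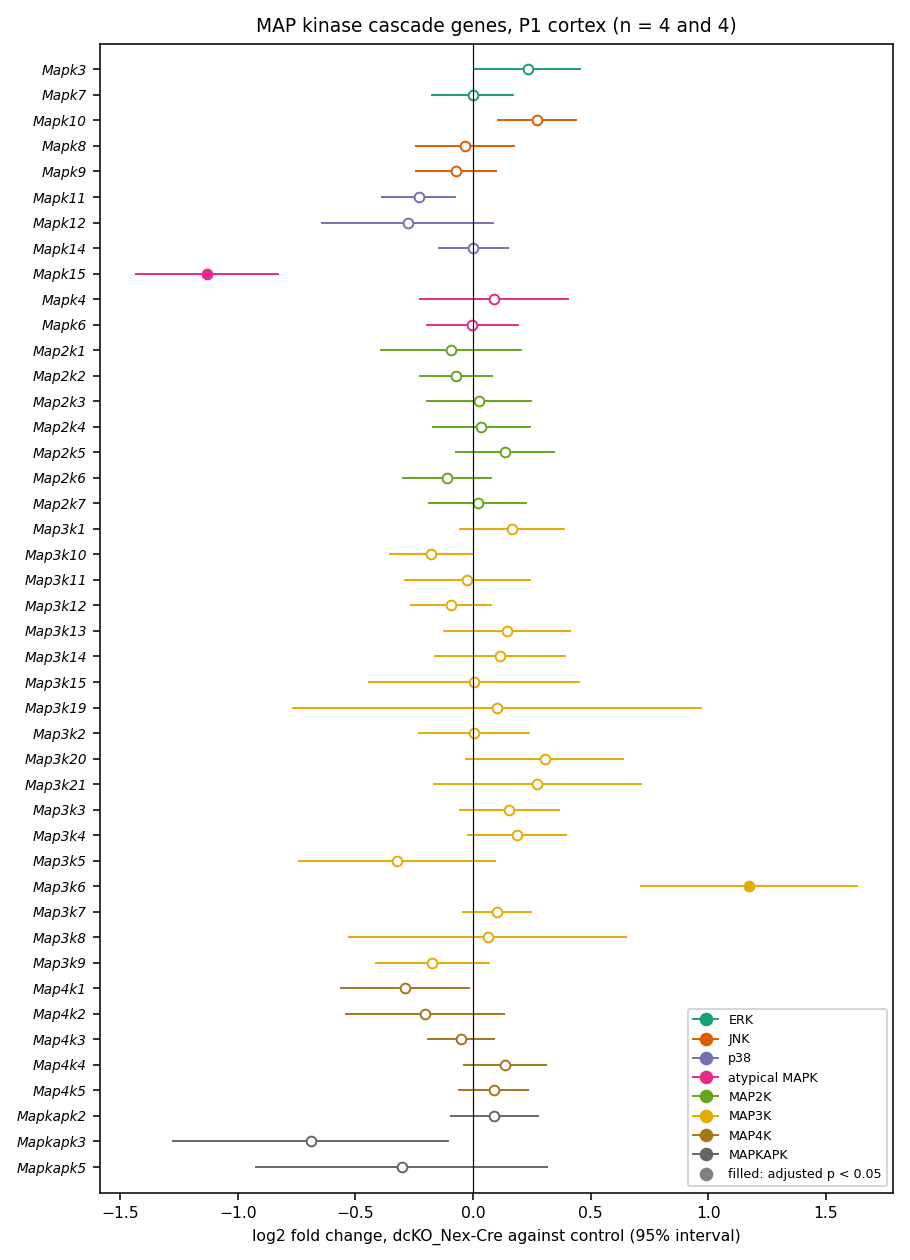
Log2 fold change of tested MAP kinase cascade genes, dcKO_Nex-Cre against control (x axis, log2), with its 95% interval from the edgeR fit over 4 and 4 libraries, coloured by role. Filled points are past an adjusted p of 0.05, namely *Mapk15* at -1.13 and *Map3k6* at 1.17, and the other points lie between -0.69 and 0.30.

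Levels differed far more between the members than between the groups. Divided by the exon length of each gene, the control levels spanned from 66.6 CPM per kilobase for *Mapk3* down to 0.0809 for *Mapk13*. This length joins all annotated exons of a gene, whichever transcripts are present, and the order depends on it. Without the division, *Map4k4* was at a mean of 547 CPM in the control and *Mapk3* at 150 CPM. *Mapk3*, which codes for ERK1 (66.6 ± 3.98 CPM per kilobase, SD, n = 4), and *Map4k4* (57.1 ± 2.86) stood near the top of the order, apart by more than 1 SD of each. *Map2k4* (32.4 ± 1.54) and *Mapk8* (31.4 ± 0.575), below them and next to each other, differed by less than the SD of *Map2k4* and by more than that of *Mapk8*. The lowest levels among the tested genes were those of *Map3k6* (0.275 ± 0.0616), *Mapkapk3* (0.255 ± 0.0223) and *Map3k8* (0.186 ± 0.0597). The single member called higher at an adjusted p under 0.05 by edgeR, *Map3k6*, thus stood near the bottom of the order.

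**Figure D2:**
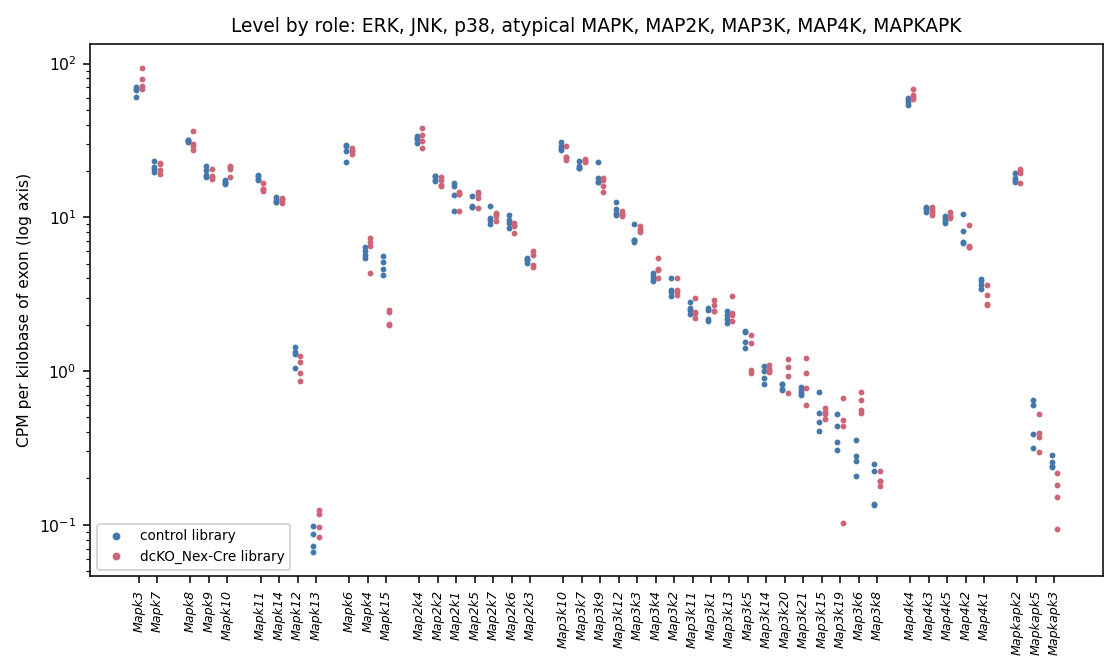
CPM per kilobase of exon (y axis, log scale) of the genes in every library, grouped by role and ordered by control level, with control libraries in blue and dcKO_Nex-Cre libraries in red. Control means run from 66.6 for *Mapk3* to 0.0809 for *Mapk13*, and the red and blue points of most genes intermix, with the clearest gaps at *Mapk15* and *Map3k6*.

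Among the conventional ERKs, which are best known for growth factor and activity signals, neither *Mapk3* nor *Mapk7* passed the threshold. *Mapk3* was at 151, 138, 155 and 158 CPM in control replicates 1 to 4 and at 211, 161, 179.9 and 154 CPM in dcKO_Nex-Cre replicates 1 to 4. Replicate 1 of the mutants stood highest and replicate 4 lay inside the control range, so that the groups overlapped. Its log2 fold change was 0.23 (SE 0.10, 95% interval 0.010 to 0.45, adjusted p = 0.343 by edgeR). *Mapk7*, the gene of ERK5, was at 92.9 ± 6.401 and 92.8 ± 6.71 CPM (SD, n = 4 each), with a log2 fold change of -0.0013.

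The JNK kinases respond to stress and are also active in migrating neurons and growing axons. *Mapk10*, the gene of the largely neuronal JNK3, was at 188, 187, 195 and 183 CPM in the 4 control libraries and at 238, 236, 231 and 203 CPM in the 4 dcKO_Nex-Cre libraries. Every mutant library lay above every control library, and replicate 4 lay closest to the control. The log2 fold change was 0.27 (SE 0.075, 95% interval 0.11 to 0.44), with an adjusted p of 0.139 by edgeR and p = 0.0286 in the two-sided exact permutation test, the smallest value that 4 libraries against 4 allow. Groups that do not overlap give this permutation p in any gene, and 8.0% of all genes tested had such groups. Without dcKO_Nex-Cre replicate 4, the log2 fold change was 0.33 (adjusted p = 0.0173 by edgeR), and the Wald test of DESeq2 gave an adjusted p of 0.0133 with all 8 libraries. Both settings also called more of all genes higher, 659 without replicate 4 and 214 by DESeq2, against 61 in the edgeR fit with all libraries. *Mapk8* (JNK1) was at 364, 357, 365 and 351 CPM in the control and 343, 312, 331 and 418 CPM in the mutant libraries. Here dcKO_Nex-Cre replicate 4 was the highest of all 8 and the other 3 lay below every control, so the log2 fold change of -0.034 (adjusted p = 0.897 by edgeR) averages libraries on both sides. *Mapk9* (JNK2) ranged from 124 to 146 CPM in the control and from 121 to 139 CPM in the mutants, with a log2 fold change of -0.073.

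The p38 kinases answer to stress and cytokines. *Mapk11*, the gene of p38 beta and the p38 member of highest level per length, was at 50.2, 53.6, 51.5 and 54.5 CPM in the control and 42.8, 43.96, 44.03 and 48.05 CPM in the dcKO_Nex-Cre libraries. All mutant libraries lay below all control libraries, with replicate 4 again nearest. Its log2 fold change was -0.23 (SE 0.071, 95% interval -0.39 to -0.076, adjusted p = 0.185 by edgeR), and without dcKO_Nex-Cre replicate 4 it was -0.26 with an adjusted p of 0.0392 by edgeR. That fit called 619 of all genes lower, against 83 with all libraries. *Mapk12* (p38 gamma) lies 1782 bases from *Mapk11* on chromosome 15 on the same strand, and it was at 3.98 to 5.42 CPM in the control and 3.28 to 4.77 CPM in the mutants, a log2 fold change of -0.28 (adjusted p = 0.477 by edgeR). *Mapk14*, which codes for the widely expressed p38 alpha, was at 56.5 ± 2.01 and 56.5 ± 1.71 CPM (SD, n = 4 each), a log2 fold change of 0.0011 whose 95% interval ran from -0.14 to 0.15. *Mapk13*, 20890 bases from *Mapk14* on chromosome 17, was at 0.209 to 0.308 CPM in the control and 0.261 to 0.393 CPM in the mutants and was not tested.

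*Mapk15* (ENSMUSG00000063704, chromosome 15, 75993769 to 75999154, plus strand of GRCm38) codes for an atypical MAP kinase, also called ERK8 in human, that needs no MAP2K for its activation and has been linked to the formation of cilia and to autophagy. It was at 11.9, 14.4, 10.7 and 13.2 CPM in control replicates 1 to 4 and at 5.16, 5.14, 6.44 and 6.23 CPM in dcKO_Nex-Cre replicates 1 to 4, on 111 to 299 counts per library. The highest mutant library lay well below the lowest control library. *Mapk15* fell by 1.13 on the log2 scale (SE 0.14, 95% interval -1.43 to -0.83, adjusted p = 0.00508 by edgeR; exact permutation p = 0.0286). It was past the threshold in each of the 8 fits that left out a library, where the log2 fold change ran from -1.20 to -1.05, and in every other alternative tried, where it ran from -1.28 to -1.09. No other annotated gene shares exon bases with *Mapk15*, and none of the 19 tested genes within 250 kilobases of it passed the threshold, their log2 fold changes lying between -0.63 and 0.31.

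The intervals of the other atypical MAP kinases did not reach a change of that size. *Mapk6*, which codes for ERK3 and held most of the family's RNA, was at 195, 154, 196 and 181 CPM in the control and 179.9, 189.6, 183 and 173 CPM in the mutant libraries. All mutant values fell inside the control range, and the log2 fold change was -0.0027 (95% interval -0.19 to 0.19, adjusted p = 0.992 by edgeR). Its sign turned under several settings, with values no larger than 0.038. *Mapk4*, which codes for the related ERK4, was at 29.2 to 34.8 CPM in the control and at 39.5, 35.1, 37.2 and 23.3 CPM in the mutants, where 3 libraries lay above the control range and replicate 4 below it (log2 fold change 0.089, 95% interval -0.23 to 0.40, adjusted p = 0.810 by edgeR).

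Because *Mapk15* has been linked to cilia, markers of motile ciliated cells were set beside it. Of 14 such markers 13 were tested, 7 of them above 0 and 6 below, and their summed level was 66.7 to 82.5 CPM in the control and 70.6 to 102 CPM in the dcKO_Nex-Cre cortex. No marker of that list was lower at an adjusted p under 0.05 by edgeR, and *Tekt1*, a filament protein of axonemes, was higher (log2 fold change 1.04, adjusted p = 0.00239 by edgeR). The master regulator of motile ciliogenesis *Foxj1* was at 18.9, 16.5, 16.9 and 20.2 CPM in the control and at 24.4, 27.6, 24.2 and 12.7 CPM in the mutants. Choroid plexus, which is ciliated and can be carried along in a cortex dissection, varied by library: its 6 markers summed to 748, 23.3, 95.2 and 1349.9 CPM in control replicates 1 to 4 and to 15.9, 561, 8.38 and 4.15 CPM in dcKO_Nex-Cre replicates 1 to 4. The part of choroid plexus in the level of *Mapk15* was not tested.

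**Figure D3:**
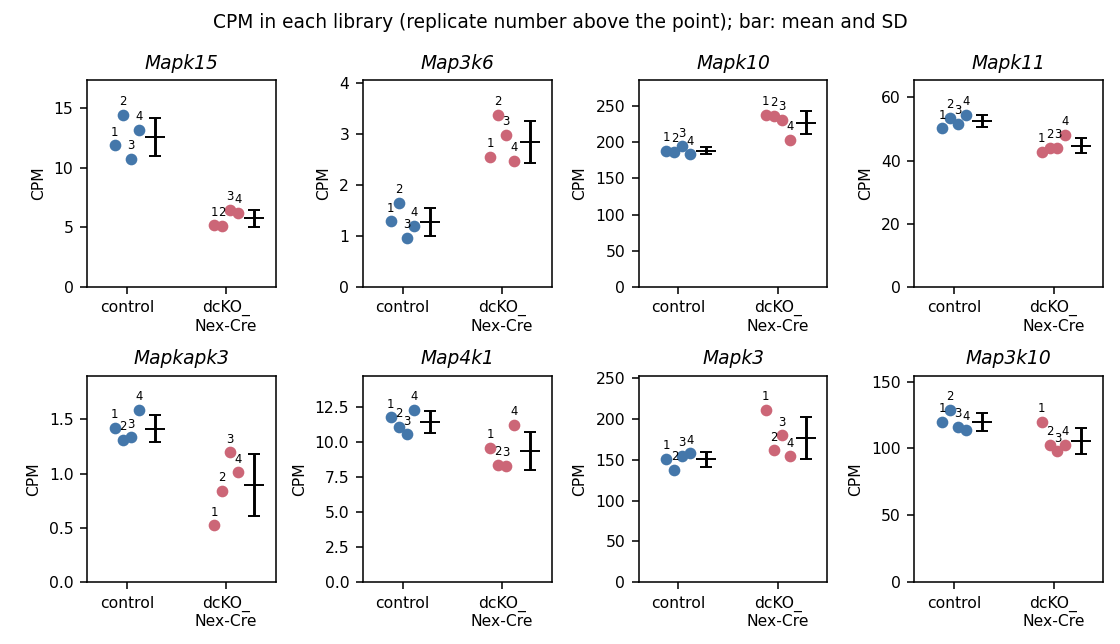
CPM (y axis, from 0) of the 8 members at an unadjusted p under 0.05 in each library, with replicate numbers above the points and the mean and SD beside each group (n = 4). The groups separate for *Mapk15*, *Map3k6*, *Mapk10*, *Mapk11* and *Mapkapk3* and overlap for *Map4k1*, *Mapk3* and *Map3k10*.

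The MAP2Ks are the dual-specificity kinases that phosphorylate the MAP kinases themselves, and their levels were even between the groups. None of the 7 reached an unadjusted p under 0.05 by edgeR, the log2 fold changes ran from -0.11 to 0.14, and all 7 intervals lay within 0.5 of 0. *Map2k4*, an activator of JNK and p38 and the MAP2K of highest level per length, was at 153, 141, 159 and 151 CPM in the control and 179, 147, 160.5 and 132 CPM in the mutant libraries. The mutant values lay on both sides of the control range, with replicate 1 the highest of all and replicate 4 the lowest, and the log2 fold change was 0.035 (adjusted p = 0.894 by edgeR). *Map2k1* and *Map2k2*, which code for the ERK activators MEK1 and MEK2, had log2 fold changes of -0.095 (SE 0.14) and -0.073 (SE 0.070). *Map2k7*, a JNK activator, was at 38.7 ± 4.77 and 39.2 ± 2.06 CPM (SD, n = 4 each). Its value is uncertain, since *Gm49320* shares 1349 bases, 35.2%, of its exons on the same strand. The p38 activators *Map2k3* and *Map2k6* were at log2 fold changes of 0.025 and -0.11, and the ERK5 activator *Map2k5* at 0.14.

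*Map3k6* (ENSMUSG00000028862, chromosome 4, 133240818 to 133252929, plus strand of GRCm38) codes for ASK2, a stress-responsive MAP3K that works together with ASK1. It was at 1.28, 1.64, 0.9597 and 1.19 CPM in the control libraries and at 2.55, 3.37, 2.97 and 2.47 CPM in the dcKO_Nex-Cre libraries, on 23 to 88 counts per library. Every mutant library lay above every control library. *Map3k6* rose by 1.17 on the log2 scale (SE 0.21, 95% interval 0.71 to 1.63, adjusted p = 0.0317 by edgeR; exact permutation p = 0.0286). The call was close to the threshold and was lost in 8 of the alternative fits, namely without control replicate 1 (adjusted p = 0.132 by edgeR), 3 (0.0918) or 4 (0.120), without dcKO_Nex-Cre replicate 1 (0.0552), 2 (0.0852) or 3 (0.0999), with the lane tag as a covariate (0.0801) and with the replicate block (0.0802), while the log2 fold change stayed between 1.06 and 1.37 in all fits. The mutant library with the highest value, replicate 2, also had the highest summed level of meningeal markers, at 10.6, 56.95, 20.7 and 20.4 CPM in dcKO_Nex-Cre replicates 1 to 4 against 15.1 to 29.3 CPM in the control. The part of meninges in the difference was not tested.

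Neither of the other ASK genes passed the threshold. *Map3k5*, the gene of ASK1, was at 10.99, 8.65, 9.39 and 11.01 CPM in the control and 10.4, 6.21, 9.29 and 5.89 CPM in the mutants, where replicates 2 and 4 lay below the control range and replicates 1 and 3 inside it (log2 fold change -0.32, SE 0.19, adjusted p = 0.470 by edgeR). *Map3k15*, the gene of ASK3, had a log2 fold change of 0.0041 (SE 0.20). Its value is uncertain, since *Pdha1* shares 603 bases, 13.9%, of its exons on the opposite strand, at a mean of 3472 counts per library against 54.6, and the library kit does not mark strand. No gene shares exon bases with *Map3k6*, and of 7 tested genes within 250 kilobases none passed the threshold, their log2 fold changes lying between -0.74 and 0.29.

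Of all 18 MAP3Ks, 13 were above 0 and 5 below, with a median log2 fold change of 0.10, and *Map3k6* alone was past an adjusted p of 0.05 by edgeR. *Map3k10*, a mixed-lineage kinase (MLK2) that activates JNK and was the MAP3K of highest level per length, was at 120.0, 129, 116 and 114 CPM in the control and 119.7, 103, 97.9 and 102 CPM in the mutant libraries. Replicate 1 of the mutants lay inside the control range and the other 3 below it (log2 fold change -0.18, SE 0.079, adjusted p = 0.357 by edgeR). *Ttc9b* shares 612 bases, 14.8%, of the exons of *Map3k10* on the opposite strand, so without strand reads from these bases cannot be told apart. The related MLK1 gene *Map3k9* was at -0.17, MLK3 (*Map3k11*) at -0.024 and MLK4 (*Map3k21*) at 0.27 on the log2 scale.

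*Map3k12* and *Map3k13* code for DLK and LZK, sensors of axon damage that act in neurons. *Map3k12* was at 101 ± 9.37 CPM in the control and 94.4 ± 2.88 CPM in the dcKO_Nex-Cre cortex (SD, n = 4 each), and *Map3k13* at 19.6 ± 1.52 and 21.6 ± 3.699 CPM. For each gene the difference was smaller than the larger SD and larger than the smaller SD. Neither passed the threshold, with adjusted p = 0.608 and 0.619 by edgeR. *Pcbp2* shares 1573 bases, 17.5%, of the exons of *Map3k12* on the opposite strand and had more counts (a mean of 4657 against 2297 per library), so the value of *Map3k12* is uncertain in the same way as that of *Map3k10*. *Map3k7*, the gene of the TGF-beta activated kinase TAK1, was at 134 to 150.1 CPM in the control and 146 to 154 CPM in the mutants (log2 fold change 0.10). The MEKK genes *Map3k1*, *Map3k2*, *Map3k3* and *Map3k4* had log2 fold changes of 0.16, 0.0029, 0.15 and 0.19. *Map3k20* (ZAK), at 7.68 to 8.43 CPM in the control and 9.39, 10.8, 12.2 and 7.35 CPM in the mutants, was above every control in dcKO_Nex-Cre replicates 1 to 3 and below them in replicate 4 (log2 fold change 0.30, adjusted p = 0.399 by edgeR). *Map3k14* (NIK) and *Map3k8* (TPL2), both known from immune signaling, were at log2 fold changes of 0.11 and 0.062, the latter at under 1.2 CPM in every library. *Map3k19* was at 1.502 to 2.56 CPM in the control and at 2.35, 3.26, 2.15 and 0.505 CPM in the mutants, with dcKO_Nex-Cre replicate 4 at the bottom and an SE of 0.39.

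The MAP4Ks stand at the top of the cascades. *Map4k4* (HGK), the MAP4K of highest level, was at 537, 575, 561 and 513 CPM in the control and 656, 579, 601 and 565 CPM in the dcKO_Nex-Cre libraries. Although 3 mutant libraries lay above every control, replicate 4 did not, and the log2 fold change of 0.14 had a 95% interval from -0.039 to 0.31 (adjusted p = 0.470 by edgeR). *Map4k1* (HPK1), which is best known from blood cells, was at 11.8, 11.1, 10.6 and 12.3 CPM in the control and 9.57, 8.39, 8.29 and 11.2 CPM in the mutants. Here 3 mutant libraries lay below the control range and replicate 4 inside it, with a log2 fold change of -0.29 (SE 0.12, 95% interval -0.56 to -0.017, adjusted p = 0.337 by edgeR). Markers of blood cells other than microglia, 11 genes with 7 tested, summed to 85.4 to 130.0 CPM in the control and 85.4 to 174 CPM in the mutants. Of the 7 tested, 6 were above 0, none of them at an unadjusted p under 0.05, and the median log2 fold change was 0.14. The leukocyte antigen *Ptprc* was the single tested marker below 0, at 2.03 to 3.34 CPM in the control and 1.303 to 2.105 CPM in the mutants (log2 fold change -0.61, adjusted p = 0.277 by edgeR), and the T cell gene *Cd3e* had no count in any library. Microglial markers summed to 109.7 to 128 CPM in the control and 115 to 153 CPM in the mutants. Of these 9 markers 5 were above 0 and 4 below, with a median log2 fold change of 0.046. *C1qb*, at 0.46 (adjusted p = 0.0422 by edgeR), was the only one past the threshold, and the lowest was *P2ry12* at -0.57 (adjusted p = 0.0596 by edgeR). The part of blood cells in the level of *Map4k1* was not tested. *Map4k2*, *Map4k3* and *Map4k5* had log2 fold changes of -0.20 (SE 0.15), -0.049 (SE 0.064) and 0.088 (SE 0.067).

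The MAPKAP kinases act below p38 and ERK. *Mapkapk2*, the gene of MK2, made up nearly all of the family's RNA per length and was at 54.5, 51.9, 58.9 and 53.1 CPM in the control and 62.3, 60.5, 59.2 and 50.5 CPM in the mutant libraries. The groups overlapped, and the log2 fold change was 0.091 (adjusted p = 0.646 by edgeR). *Mapkapk3* (MK3) was at 1.42, 1.31, 1.34 and 1.59 CPM in the control and 0.522, 0.843, 1.197 and 1.01 CPM in the mutant libraries, on 18 to 36 counts per library. All mutant libraries lay below all control libraries, at 63.2% of the control mean, but at this depth the 95% interval of its log2 fold change of -0.69 ran from -1.27 to -0.11 (adjusted p = 0.287 by edgeR). *Mapkapk5* (MK5) was at -0.30 (SE 0.28) on the log2 scale. Its value is uncertain, since *Adam1a* and a gene model without a name each cover over 56% of its exon bases on the same strand. The share of *Mapkapk2* in the family is uncertain with it.

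Groups that did not overlap were found for 5 of the 45 tested members (11.1%), where 8.0% of all genes tested showed this, namely *Mapk15*, *Mapk11* and *Mapkapk3* below and *Map3k6* and *Mapk10* above the control. The sequence around the start site of these genes is shown for the 3 of them that the RefSeq promoter table holds (GRCm38.p6, 250 bases before to 50 bases after the annotated start, 5′ to 3′ on the strand of the gene). Of all 46 members, 37 were matched in that table, with 50 promoters. Letters of 4 motifs were searched on both strands, namely the cAMP response element TGACGTCA, the AP-1 site TGANTCA, the ETS core CCGGAAGT and the TCF/LEF core CTTTGA, all of them elements whose factors lie below MAP kinase or WNT signaling, and matches are in capitals. The promoter of *Map3k6* lies at chr4:133240568-133240867 on the plus strand, that of *Mapk10* at chr5:103211285-103211584 and that of *Mapk11* at chr15:89149557-89149856, both on the minus strand.
Map3k6: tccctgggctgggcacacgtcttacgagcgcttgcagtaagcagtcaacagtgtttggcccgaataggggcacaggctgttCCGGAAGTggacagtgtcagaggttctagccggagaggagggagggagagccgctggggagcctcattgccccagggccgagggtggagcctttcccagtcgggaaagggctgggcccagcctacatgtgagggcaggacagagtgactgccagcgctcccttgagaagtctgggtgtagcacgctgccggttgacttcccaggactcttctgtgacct
Mapk10: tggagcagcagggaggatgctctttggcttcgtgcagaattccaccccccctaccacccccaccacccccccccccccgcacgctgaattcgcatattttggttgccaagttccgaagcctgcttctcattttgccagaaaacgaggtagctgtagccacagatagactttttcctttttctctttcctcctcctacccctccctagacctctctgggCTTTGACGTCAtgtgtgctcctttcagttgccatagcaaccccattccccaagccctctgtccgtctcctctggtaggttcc
Mapk11: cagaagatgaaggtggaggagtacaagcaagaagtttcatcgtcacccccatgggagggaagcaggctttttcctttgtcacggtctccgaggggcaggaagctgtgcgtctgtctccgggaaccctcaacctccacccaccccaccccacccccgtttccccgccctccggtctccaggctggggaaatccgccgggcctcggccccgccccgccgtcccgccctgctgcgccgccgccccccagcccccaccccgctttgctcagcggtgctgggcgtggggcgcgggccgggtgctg

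The promoter of *Map3k6* held the ETS core once, 169 bases before the start, and a GC content of 62.0%. In that of *Mapk10* the cAMP response element, 29 bases before the start, overlapped the TCF/LEF core. The promoter of *Mapk11* was the richest of these in GC (69.7%) and held none of the 4 motifs. Over the 50 promoters of the members, the cAMP response element was present in 2.0%, the AP-1 site in 6.0%, the ETS core in 4.0% and the TCF/LEF core in 2.0%. Over all 32851 promoters of the table these shares were 1.79%, 7.81%, 3.89% and 16.0%. A match of letters describes the sequence and does not show that a factor binds there.

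The balance between the members of a family was described in each library as the share of a member in the summed CPM per kilobase. A share also moves when another member of the sum changes. Among the JNK genes, *Mapk10* held 24.8% ± 0.757 of the sum in the control and 29.4% ± 3.44 in the mutants (SD, n = 4 each). Replicates 1 to 3 of the mutants lay between 30.6% and 31.8% and replicate 4 at 24.2%, inside the control range of 24.2% to 25.8%. Among the p38 genes, *Mapk11* held 54.5% to 57.6% in the control and 51.2% to 54.8% in the mutants, which overlapped by a single library. The share of *Mapk15* among the atypical MAP kinase genes was 10.4% to 16.4% in the control and 5.43% to 7.46% in the mutants, and that of *Mapk6* 67.04% to 73.5% and 74.3% to 79.3%. The level of *Mapk6* itself had a log2 fold change of -0.0027, so the rise of its share is no rise of its RNA. When counts were not divided by length, the shares of *Mapk15* still did not overlap between the groups, whereas those of *Mapk6* did.

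**Figure D4:**
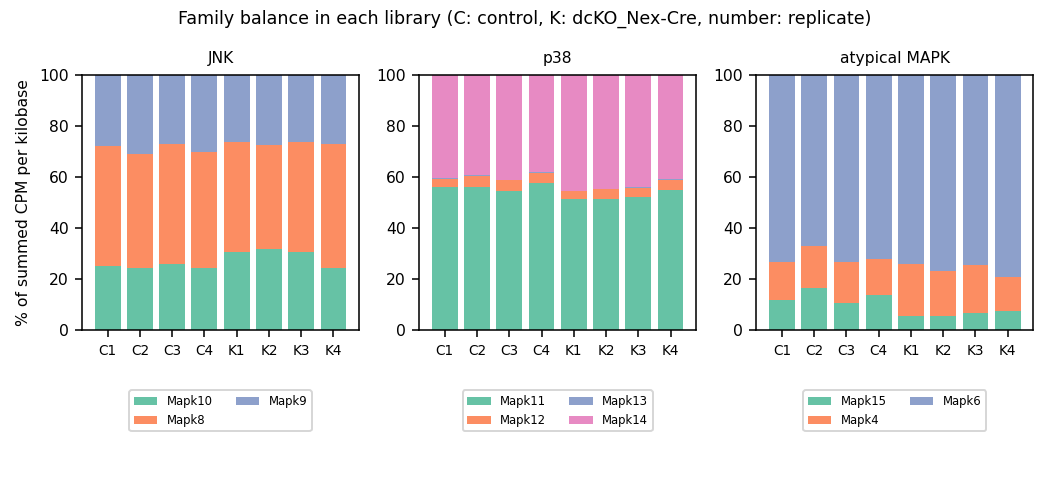
Share of each member in the summed CPM per kilobase of its family (y axis, percent) in each library, for the JNK, p38 and atypical MAP kinase genes, with C for control and K for dcKO_Nex-Cre. The share of *Mapk10* is higher in K1 to K3 and not in K4, and that of *Mapk15* is lower in every mutant library.

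Genes that act with these kinases under other names were read from 7 lists of 115 genes in all. Of these, 111 were tested, and none passed an adjusted p of 0.05 by edgeR in either direction. At an unadjusted p under 0.05, 4 were lower (3.604%) and 11 were higher (9.91%), against 7.05% and 6.59% of all genes tested. The median log2 fold change of the 111 was 0.036, with 65 above 0. By DESeq2, which called 277 of all genes lower against 83 by edgeR, *Fosl2* was past the threshold as well.

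Among the kinases of the same tiers with other names, such as the TAOK and MAP4K-like genes, 11 of 12 were tested, *Mos* being too low. *Mink1*, a relative of *Map4k4*, was at -0.21 (adjusted p = 0.398 by edgeR). All 8 effector kinases were tested, and the smallest p values were those of *Rps6ka6* (RSK4), at 0.19 (adjusted p = 0.353 by edgeR), and *Mknk1*, at 0.13. The median log2 fold changes of these lists were 0.030 and 0.083.

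Of the 13 phosphatase genes, whose products switch MAP kinases off, 12 were tested, 4 above 0, with a median log2 fold change of -0.058. *Dusp10*, which removes phosphate from JNK and p38, was at 4.44, 2.901, 3.88 and 4.54 CPM in the control and 5.51, 5.25, 5.78 and 7.52 CPM in the dcKO_Nex-Cre libraries. All mutant libraries lay above all control libraries, and the log2 fold change was 0.60 (SE 0.18, adjusted p = 0.178 by edgeR). *Ptprr*, a neuronal phosphatase that binds ERK, was at 0.43 (SE 0.17, adjusted p = 0.295 by edgeR). Of 18 scaffolds and adaptors, which hold the kinases together, 17 were tested with a median of 0.065, and *Tab1* and *Tab2*, the partners of TAK1, were at 0.22 (adjusted p = 0.310 by edgeR) and 0.15 (adjusted p = 0.333).

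Upstream, all 24 genes of the list of small GTPases and their regulators were tested, with a median log2 fold change of 0.010. The small GTPase *Rap1b* was at 206, 249.9, 185 and 204 CPM in the control and 129, 148, 157 and 209 CPM in the mutants. Replicates 1 to 3 of the mutants lay below the control range and replicate 4 inside it (log2 fold change -0.40, adjusted p = 0.258 by edgeR), and within lane tag 2 the adjusted p by edgeR was 0.0463. *Rasgrp2*, an exchange factor for Rap, was at -0.27 (adjusted p = 0.278 by edgeR).

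Downstream, 19 transcripts that ERK activity induces were tested, 9 of them above 0, with a median log2 fold change of -0.013. *Fosl2*, a partner of JUN in AP-1, was at 54.1, 64.5, 60.4 and 52.95 CPM in the control and 48.3, 43.9, 31.2 and 25.4 CPM in the mutant libraries. Every mutant library lay below every control, the libraries of lane tag 8 lowest (log2 fold change -0.63, SE 0.17, adjusted p = 0.140 by edgeR and 0.0229 by DESeq2). *Egr2* had the opposite sign at 0.70 (SE 0.30, adjusted p = 0.334 by edgeR). Of 21 substrates 20 were tested, with a median of 0.047, and the ERK target *Elk1* was at 0.17 (adjusted p = 0.310 by edgeR) and the neuronal p38 target *Mef2c* at 0.17 (adjusted p = 0.520 by edgeR).

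Markers of the cell types of the cortex were set beside these values. The 11 markers of projection neurons, in which Nex-Cre acts, were all detected and summed to 1812 to 2068 CPM in the control and 1566 to 1780.1 CPM in the dcKO_Nex-Cre cortex. Of these 11, 4 were above 0, with a median log2 fold change of -0.059, and 3 were lower at an unadjusted p under 0.05 by edgeR. The sum includes *Neurod6*, whose locus drives the Cre, at -0.74 (adjusted p = 0.0192 by edgeR). For *Neurod6* an effect of the Cre allele itself cannot be told apart. Interneuron markers summed to 806 to 949 and 708 to 860.3 CPM, those of radial glia and astrocytes to 2544 to 3053 and 2280.1 to 2856 CPM, and those of oligodendrocyte precursors to 173 to 252 and 252 to 308 CPM, all 5 of the last list being above 0 and *Cspg4* past the threshold (log2 fold change 0.56, adjusted p = 0.0355 by edgeR). Endothelial cells and pericytes gave 245 to 342 and 279 to 326 CPM. The sums follow the markers of highest level. Of the 10 markers of radial glia and astrocytes 6 were above 0, with a median log2 fold change of 0.086. At an unadjusted p under 0.05 by edgeR, 2 of them were higher and 1 was lower. Of the 9 endothelial and pericyte markers 7 were above 0 (median 0.16), and of the 10 interneuron markers 2 were (median -0.038). The part of these cell types in the levels of the MAP kinase cascade genes was not tested.

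**Figure D5:**
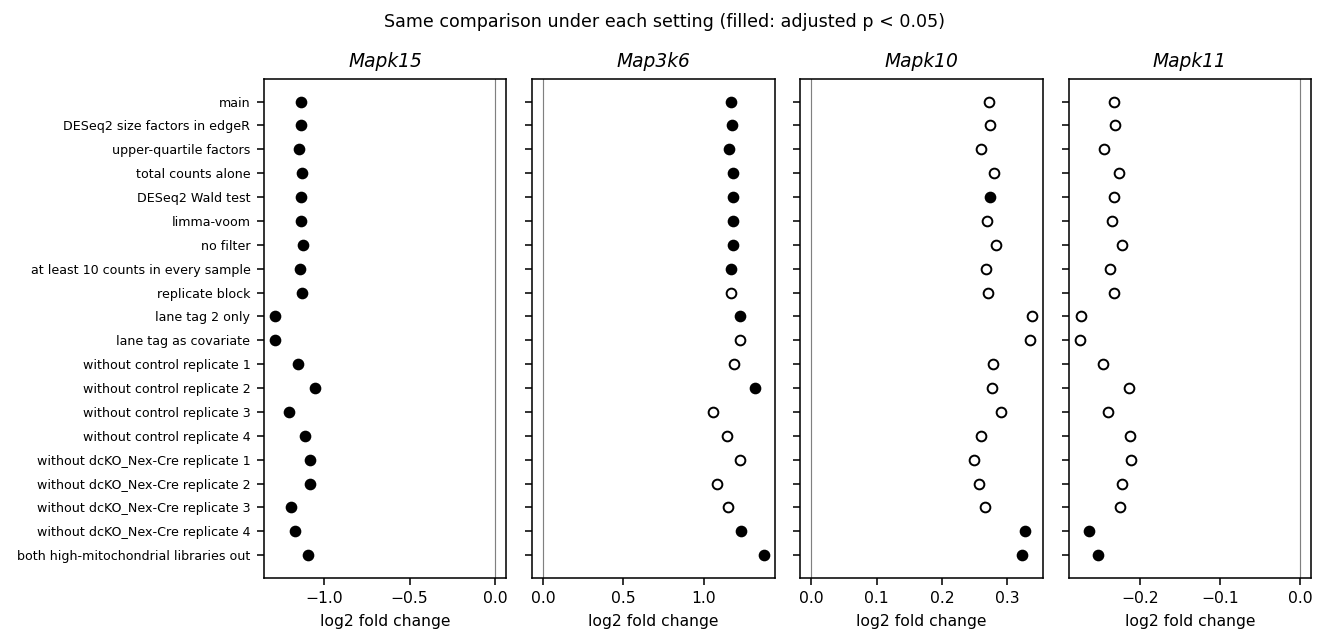
Log2 fold change (x axis) of *Mapk15*, *Map3k6*, *Mapk10* and *Mapk11* under the edgeR fit with all libraries (main) and each alternative (y axis), with filled points past an adjusted p of 0.05. *Mapk15* is filled in every line, between -1.28 and -1.05, and *Map3k6* loses the call in 8 lines. *Mapk10* and *Mapk11* are open in most lines. Both are past the threshold without dcKO_Nex-Cre replicate 4 and without both libraries of highest mitochondrial share, and *Mapk10* also by DESeq2.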

How the data were processed

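RNA of whole P1 cortex had been extracted with Trizol and made into libraries with the Illumina TruSeq RNA Sample Preparation v2 kit, which does not mark strand. The values deposited by the authors are raw read counts per Ensembl identifier, 1 file a sample, without normalization. The labels name the build mm10, and the aligner, the counting program and the annotation are not given in the sources used here. Groups came from the sample titles, and no column of another sample was present.

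Gene symbols, positions and exon lengths were taken from GENCODE M21 (GRCm38), in which 48349 of 48709 identifiers were found. Testing used edgeR 4.0.16 under R 4.3.3 (filterByExpr, TMM, robust quasi-likelihood F test, two-sided, no covariate), with Benjamini-Hochberg adjustment over 16287 genes, whose biological coefficient of variation was 0.143. SEs are the size of the log2 fold change divided by the square root of F, and intervals are 95%. CPM were also compared by the exact permutation test over 70 regroupings, whose smallest p is 0.0286. Libraries of a group differed by more than counting noise (chi-square per degree of freedom at least 3.77). The methods were tested on simulated data.

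The members and gene lists were chosen with earlier results of these data known. CPM of every library are given for members at an unadjusted p under 0.05, for the member of highest control level per length in each role, and for *Mapk15*, *Map4k1* and *Mapkapk3*. Of each list of pathway genes, those past the threshold and the 2 of smallest p are named. Some items are withheld and are not reported here, though the counts include them. Other members are given by role, and the libraries printed for some of them and for single markers were chosen after their values were seen. Alternatives were 3 other normalizations, DESeq2 1.42.0, limma-voom (limma 3.58.1), no filter, a minimum of 10 counts in each library, the replicate block, the lane tag, and leaving out each library. Leaving out both libraries of highest mitochondrial share was chosen after seeing the data. Promoter sequences are from RefSeq, and no protein sequence was used. Figures were made in Python 3.11.15 with matplotlib 3.10.9.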

Additional observations from a re-analysis of the deposited data

Results flagged for a closer look

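In 4 of the 92 groups of 4 libraries examined, 2 for each member, 1 library stood far from the other 3 by Dixon's criterion, and chance alone gives about 1 in 20. *Map2k1*, the gene of MEK1, was at 37.1 CPM in dcKO_Nex-Cre replicate 4, against 48.02 to 49.22 CPM in the other mutant libraries. *Map4k2* was at 59.38 CPM in the same library, against 42.58 to 43.11 CPM in the other mutants. *Map3k3* (MEKK3) was at 36.34 CPM in control replicate 2, against 27.67 to 28.85 CPM in the other controls. *Map2k5* (MEK5) was at 44.4 CPM in control replicate 3, against 37.53 to 38.28 CPM in the other controls. Control replicate 2 and dcKO_Nex-Cre replicate 4 are the libraries with the highest mitochondrial shares, 6.87% and 6.15%, and their part in these values was not tested.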

How the results depend on the processing

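The numbers of members called, 1 lower and 1 higher, were the same with the 3 other normalizations, by limma-voom, without a filter, with a minimum of 10 counts and within lane tag 2. The number lower was 2 without both libraries of highest mitochondrial share, where *Mapk11* was added, and 1 to 2 when single libraries were left out in turn. The number higher was 2 by DESeq2, 0 with the replicate block, 0 with the lane tag as a covariate, 3 without both libraries (*Map3k6*, *Mapk10* and *Map3k3*), and 0 to 2 when a library was left out. Without both libraries, 898 of all 16330 genes tested were called lower and 896 higher. At an unadjusted p under 0.05 by edgeR, 3 members were lower without a filter and 2 to 5 when a library was left out. Those higher numbered 7 within lane tag 2, 5 with the lane tag as a covariate, 11 without both libraries and 2 to 9 when a library was left out, the 9 without dcKO_Nex-Cre replicate 4. Over all genes, those higher at this p made up 11.7% within lane tag 2, 9.57% with the lane covariate, 14.9% without both libraries, 4.42% to 6.52% in 7 of the fits without a library and 14.3% without dcKO_Nex-Cre replicate 4, against 6.59% with all libraries. Those lower made up 4.97% without a filter and 4.95% to 13.9% when a library was left out, against 7.05%.

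For the pathway genes under other names, DESeq2 called 1 lower (*Fosl2*), lane tag 2 alone 1 (*Rap1b*), the fit without both libraries 6 lower and 4 higher, and the fits without a library 0 to 3 in each direction. For all genes, 83 lower and 61 higher became 277 and 214 by DESeq2, 150 and 109 without a filter, 33 and 21 with the replicate block, 29 and 23 with the lane covariate, 108 and 140 within lane tag 2, and 898 and 896 without both libraries. Over the fits without a library they ran from 9 to 619 lower and from 9 to 659 higher, both maxima without dcKO_Nex-Cre replicate 4. The cause was not tested.

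The replicate numbers gave no sign of a pairing of the samples: deviations of same-numbered samples correlated at 0.13, 0.018, 0.13 and -0.14, and control replicate 2 correlated best with dcKO_Nex-Cre replicate 4 (0.37). With 4 libraries a group, these correlations cannot exclude a pairing. With the replicate block, *Map3k6* had an adjusted p of 0.0802 by edgeR (log2 fold change 1.17). The sign turned for members near 0. *Mapk6* was at 0.0028 with total counts, 0.0037 by voom, 0.0047 without a filter, 0.0029 with the replicate block, 0.027 within lane tag 2 and 0.025 with the lane covariate. With single libraries left out, *Mapk6* ran from -0.066 to 0.038, *Mapk8* from -0.12 to 0.020 (above 0 without dcKO_Nex-Cre replicate 2) and *Map2k4* from -0.042 (without dcKO_Nex-Cre replicate 1) to 0.11. The lane tag and the group can be separated within lane tag 2 only, which leaves 2 mutant libraries. Low counts limit *Map3k6*, *Mapkapk3*, *Map3k8* and *Mapk13*.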

Other observations

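Among members chosen after their values were seen, dcKO_Nex-Cre replicate 4 was the highest mutant library in *Mapk8*, *Map4k2* and *Map3k2*, at 418, 59.38 and 55.96 CPM, and the lowest in *Mapk4*, *Map3k19* and *Map2k1*, at 23.3, 0.505 and 37.1 CPM. Of these, *Map2k1* and *Map4k2* met Dixon's criterion. Without dcKO_Nex-Cre replicate 4, the SE of the log2 fold change of *Mapk4* was 0.083 in place of 0.14. In the fit without this library and control replicate 2, chosen after seeing the data, the log2 fold changes past an adjusted p of 0.05 by edgeR were those of *Mapk15* (-1.09), *Mapk11* (-0.25), *Map3k6* (1.37), *Mapk10* (0.32) and *Map3k3* (0.23). In that fit 898 of all 16330 genes tested were lower and 896 were higher, against 83 and 61 of 16287 with all libraries. The members called there are thus to be read against a far larger share of all genes called.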
